A study of Mus musculus with 24 samples.

Results

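The 46 genes described here are mouse cell cycle and replication genes, taken from a fixed list of cyclins, cyclin-dependent kinases (CDKs) and their inhibitors, E2F factors, replication proteins, mitotic regulators, and RB and p53 pathway genes. They are 46 of 21755 protein-coding genes on chromosomes 1 to 19 and X, and the rule that lists them uses no measured value, although the list was drawn up with earlier results of these data known. Acetylation of histone H3 at lysine 9 (H3K9ac), a mark of active promoters, was mapped by ChIPmentation in spheroids of 4T1, a mouse mammary carcinoma line, with 3 libraries in each of 4 groups. Scramble cells carried a non-targeting guide, CPT1a knockout cells were edited in the gene for the enzyme that carries long-chain fatty acids into mitochondria, and KAT2a knockout cells in that for an acetyltransferase that acts on H3K9. These 3 groups were grown with 75 µM palmitate to day 5, and the fourth group was CPT1a knockout with 5 mM acetate, for which the labels do not give palmitate. A figure legend of the paper describes its H3K9ac comparison with and without acetate as made with palmitate present. If palmitate was left out, the groups with and without acetate also differed in it. All groups were stable lines with doxycycline-inducible Cas9 and puromycin selection, made with a pair of guides per gene, and the labels do not give the guide a library carried. The labels do not say whether the 3 libraries of a group came from separate cultures, and the methods speak of biological replicates only in general, so the p-values measure the spread between these libraries, which may be technical.

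The cell cycle is driven by cyclins that activate CDKs. D-type cyclins with CDK4 and CDK6 begin the phosphorylation of RB, cyclin E with CDK2 completes it, and RB then releases E2F factors, which transcribe replication genes such as the MCM helicase subunits. CDK inhibitors of the Cdkn1 and Cdkn2 families hold these kinases back, and p53 acts through Cdkn1a. H3K9ac at a promoter marks it as open to transcription and is not itself a measure of RNA.

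A gene was counted as marked where a peak of the deposited lists overlapped the 1 kb on either side of any annotated start. The strength of a promoter was its rank, a percentile among the 10777 genes marked in all 12 libraries, ordered within each library by the highest fold enrichment of a promoter peak (100 is the strongest). Ranks and not fold enrichments were compared because the lists carry no scaling between libraries. Its width was the summed length of its promoter peaks. The lists held 16212 to 34370 peaks, and the depth recovered from the fold enrichments and p-values, the background pileup in fragments per site, ran from 0.554 in CPT1a knockout library 3 to 2.52 in scramble library 1. Scramble libraries held the most peaks, the widest promoter peaks and the most distant summits of the 4 groups, as given below. Of the epithelial markers, 6 of 7 were marked in all 12 libraries and Esrp1 in 10. The endothelial (3) and haematopoietic (5) markers were marked in none, and of the 6 mesenchymal markers Vim and Pdgfra were marked in 12, Col1a1 in 11, and Col1a2, Pdgfrb and Dcn in none. The promoters of the targeted genes Cpt1a and Kat2a were marked in all 12 libraries, which does not check the knockouts, since a frameshift need not remove a promoter mark.

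Promoters of the cell cycle genes were almost all acetylated. A promoter peak was present in every library for 44 of 46 genes, against 49.5% of all protein-coding genes, so 95.7% of the list was marked throughout. The other two, Cdkn2a, which encodes the p16 and ARF inhibitors of proliferation, and Cdkn2b, which encodes p15, had no promoter peak and no gene-body peak in any library. Both stand side by side on chromosome 4 (Cdkn2a at chr4:89274471-89294653 and Cdkn2b at chr4:89306299-89311039, mm10, both on the minus strand). The stretch around them without any peak measured 95.0 to 102 kb in 11 libraries and 183 kb in CPT1a knockout library 3, the shallowest. On the side of lower coordinates the last peak before this gap ended between chr4:89257832 and chr4:89259204. Farther out on that side, with other peaks between, lies the start of Mtap, a methionine salvage gene, at chr4:89137122. The Mtap promoter was marked in all 12 libraries at a fold enrichment of 28.5 to 61.8. In a peak list an unmarked locus and an absent one cannot be told apart.

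**Figure D1:**
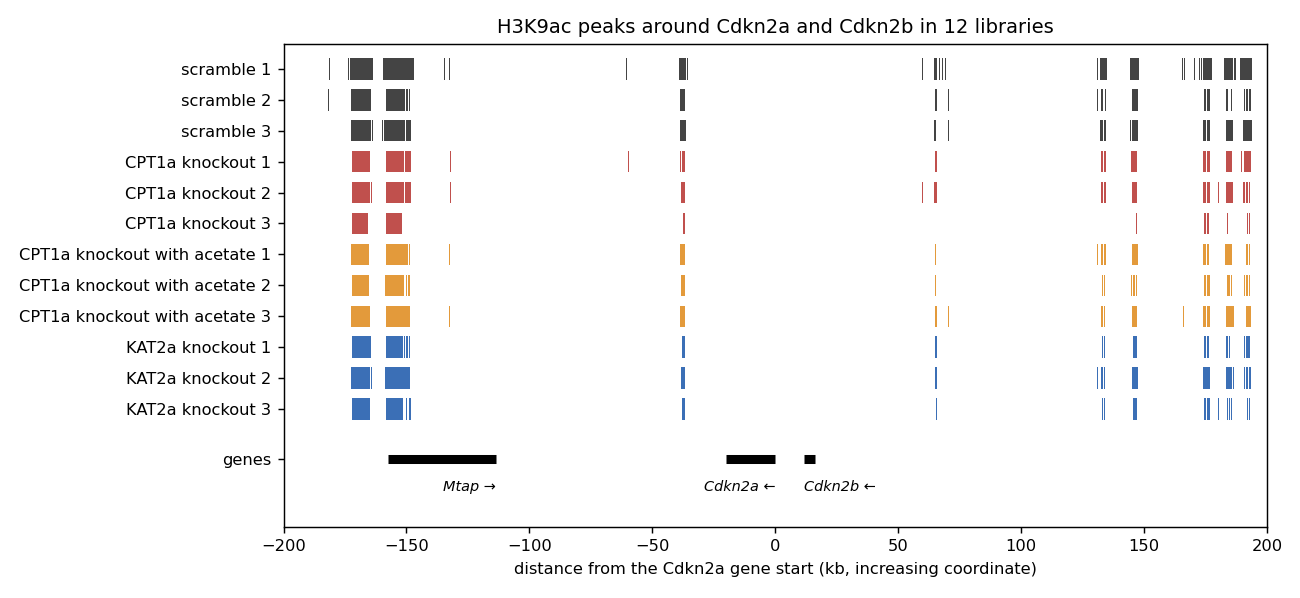
H3K9ac peaks (bars) of the 12 libraries, 1 row each, against the distance in kb from the start of Cdkn2a, with protein-coding genes below and arrows for their strand. No library has a peak over Cdkn2a or Cdkn2b, while Mtap is covered at its start in all 12.

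Among the 44 marked genes the ranks were high. The median of their mean ranks was 75.4, against 51.8 over all marked genes, and 34 of 44 lay above percentile 50, 12 were among the 10% of genes with the highest mean rank and 0 among the lowest 10%. They were also broad, with a median mean width of 3222 bp against 2438 bp. In the 1 kb around the gene start the median GC content was 58.7% for the list and 58.9% for all marked genes, and the median ratio of observed to expected CpG was 0.784 and 0.743. By role, median mean ranks were 95.7 for the 3 marked CDK inhibitors, 79.7 for the 8 replication genes, 77.0 for the 3 RB and p53 genes, 75.4 for the 4 CDKs, 71.5 for the 10 mitotic genes, 58.8 for the 8 cyclins and 56.7 for the 8 E2F factors.

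The strongest promoters belonged to CDK inhibitors, cyclins and a helicase subunit. Cdkn1b, which encodes the CDK inhibitor p27, had a mean rank of 97.8, Cdkn2c, which encodes p18, 95.7, and Ccnd1, which encodes cyclin D1, 95.6. Mcm4, a helicase subunit whose promoter peak is shared with the neighbouring gene Prkdc, followed at 91.3 and Ccna2, the S-phase cyclin A2, at 89.8. The same first 3 were also the widest, at mean widths of 14830 bp for Cdkn2c, 11798 bp for Cdkn1b and 9212 bp for Ccnd1, followed by E2f8, a repressive E2F, at 6423 bp and Cdk6, a partner of D-type cyclins, at 5881 bp. These are means over all 12 libraries, and E2f8 was wider than Cdk6 in scramble (10776 against 7161 bp) but narrower in the other 3 groups (4694 to 5111 against 5235 to 5574 bp). Thus Cdkn2c was among the most strongly marked promoters while its relatives Cdkn2a and Cdkn2b had no peak. Whether those loci were unmarked or absent cannot be told apart here. The domains of Cdkn1b and Cdkn2c were long enough that the strongest summit could lie past the end of the gene. Cdkn1b is 5113 bp long, and its strongest summit lay 6965 to 7286 bp from the gene start in 10 libraries. In scramble libraries 3 and 2 it lay 1095 and 1118 bp from the start. In most libraries the rank of Cdkn1b thus reads a site beyond the gene. Cdkn2c is 6314 bp long, and its strongest summit lay at 9574 and 9595 bp in CPT1a knockout libraries 2 and 3.

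The lowest ranks fell to Bub1, a spindle checkpoint kinase, at a mean of 21.3, Ccne1, which encodes cyclin E1, at 21.4, and E2f6, a repressive E2F, at 21.4. Ccnd3, a D-type cyclin, at 38.7 and E2f5, an RB-family partner, at 40.8 came next. These means pool the groups: E2f5 ran from 19.9 in KAT2a knockout to 71.7 in scramble, and Ccne1 from 4.47 in scramble to 37.4 in CPT1a knockout. The strongest Ccnd3 peak lay 88784 to 89562 bp from the first annotated start of the gene in all 12 libraries, at a later start. At the first start alone its rank was 1.53 ± 0.156 in scramble, 0.942 ± 0.946 in KAT2a knockout, 0.554 ± 0.169 in CPT1a knockout and 3.53 ± 0.363 when this knockout had acetate, in each group below Bub1, Ccne1 and E2f6. The narrowest promoters were Ccne1 (1473 bp), E2f6 (1486 bp), Ccnb2, a mitotic cyclin (1502 bp), Bub1 (1595 bp) and Mcm3, a helicase subunit (1872 bp). Ccne1 was the narrowest of these 5 in scramble (1035 bp) and the widest of them in CPT1a knockout (1556 bp). Between libraries of one group the ranks of a cell cycle gene varied with a median SD of 12.4 percentile points, against 11.9 for all marked genes, so single ranks in the middle of the scale were imprecise.

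**Figure D2:**
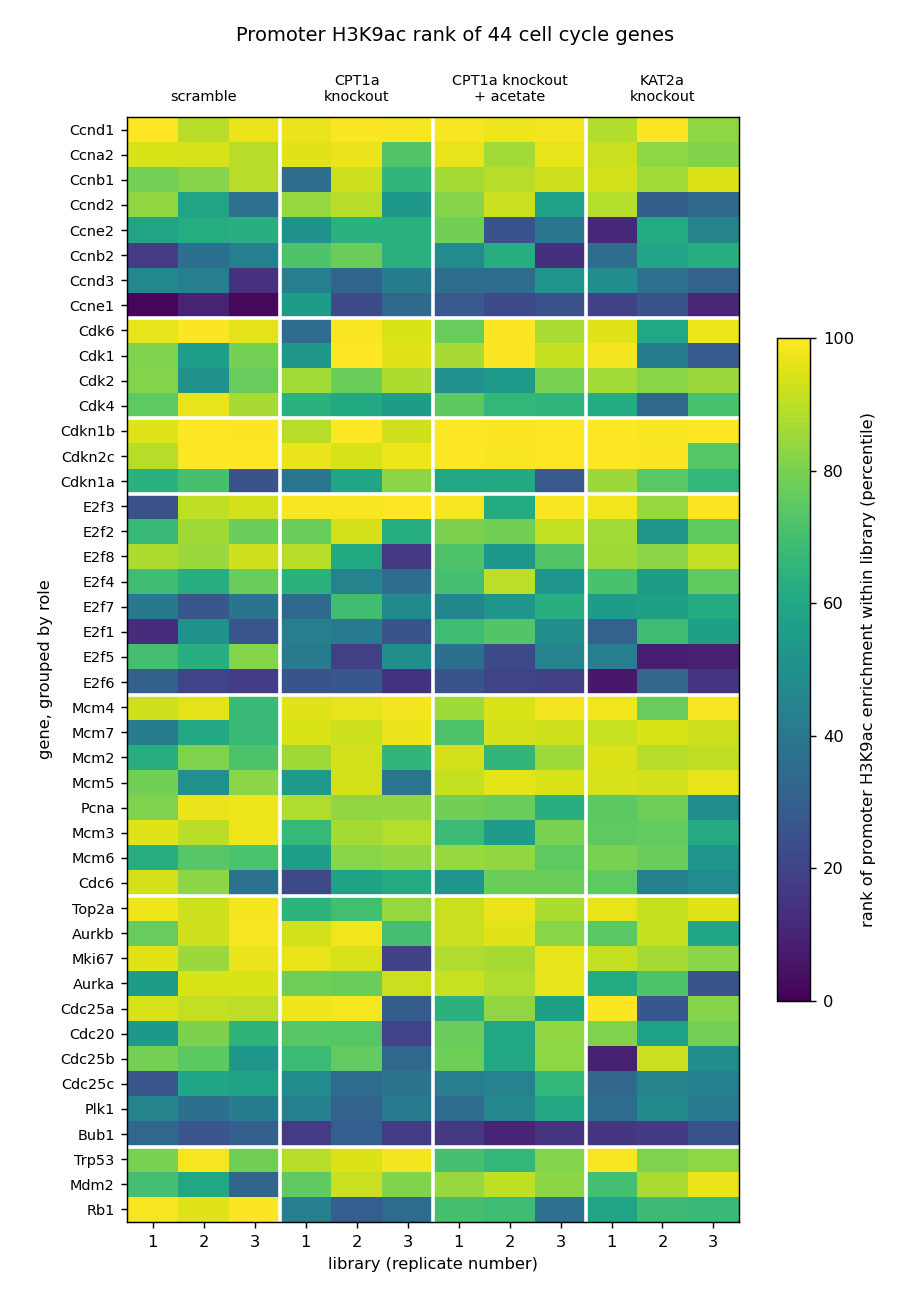
Rank of promoter H3K9ac within each library (colour, percentile among 10777 genes) for 44 cell cycle genes (rows, grouped by role and ordered by mean rank) in 12 libraries (columns, 3 per group). Cdkn1b, Cdkn2c and Ccnd1 are near the top in nearly every library, and Bub1 and E2f6 stay low in all 12.

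Promoter sequence was read for the 34 of 44 marked genes held by the promoter table used here, with RefSeq starts on GRCm38.p6. Ccnd1, Ccnd2, Ccne2, Ccna2, E2f4, E2f5, Mcm4, Cdc25c, Aurkb and Rb1 had no entry in that table, which does not mean that RefSeq lacks them. In the 250 bases before the start nearest to the H3K9ac summit, 9 of 34 (26.5%) held an E2F element (TTTCCCGC, TTTGGCGC, TTTCGCGC, TTTGCCGC or TTTGGCGG, on either strand), against 4.68% of 8530 marked genes with an entry. A CCAAT box (CCAAT, either strand), the site of the NF-Y factor, was held by 26 of 34 (76.5%), against 36.6%. The cell cycle homology element (TTTGAA or TTCGAA, either strand), through which mitotic genes are repressed outside of G2, was held by 9 of 34 (26.5%), against 11.3%. These shares describe letters in a window and not bound sites, and the 3 motifs can overlap. There were 3 E2F elements before Mcm6, 2 before Mcm5 and 1 each before Mcm7, Cdc6, Cdk1, Cdk2, Cdc25a, E2f3 and E2f7, that of Cdk2 outside the exon-free stretch shown for it.

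The following stretches are shown because their genes changed in rank or width in the comparisons that follow. Each is the longest run of the 250 bases that no annotated exon overlaps, written 5′ to 3′ on the strand of the gene, with matches to any of the 3 motifs in capitals. They lie at chr7:38107535-38107740 (Ccne1, minus strand), chr11:99024190-99024439 (Top2a, minus), chr1:20820313-20820562 (Mcm3, minus), chr10:127063285-127063533 (Cdk4, plus) and chr10:128705052-128705179 (Cdk2, minus) of GRCm38.p6. The Ccne1 stretch is 78.2% G and C and holds no match, whereas that of Top2a, the topoisomerase that resolves DNA at mitosis, is 43.6% G and C and holds 6 CCAAT boxes and 4 cell cycle homology elements.
Ccne1: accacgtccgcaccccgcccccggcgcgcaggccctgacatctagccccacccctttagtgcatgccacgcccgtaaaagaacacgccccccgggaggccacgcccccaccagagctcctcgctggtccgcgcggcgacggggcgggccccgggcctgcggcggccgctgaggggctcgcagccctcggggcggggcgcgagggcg
Top2a: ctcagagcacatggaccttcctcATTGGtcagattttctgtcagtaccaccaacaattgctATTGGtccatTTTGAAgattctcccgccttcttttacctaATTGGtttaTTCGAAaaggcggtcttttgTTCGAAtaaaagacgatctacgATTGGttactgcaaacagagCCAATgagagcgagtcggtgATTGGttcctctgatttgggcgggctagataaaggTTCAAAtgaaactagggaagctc
Mcm3: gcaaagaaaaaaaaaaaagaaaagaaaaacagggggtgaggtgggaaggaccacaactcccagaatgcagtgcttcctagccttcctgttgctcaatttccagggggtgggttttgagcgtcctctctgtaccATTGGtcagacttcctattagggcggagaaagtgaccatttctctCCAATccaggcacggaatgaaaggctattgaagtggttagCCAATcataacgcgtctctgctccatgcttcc
Cdk4: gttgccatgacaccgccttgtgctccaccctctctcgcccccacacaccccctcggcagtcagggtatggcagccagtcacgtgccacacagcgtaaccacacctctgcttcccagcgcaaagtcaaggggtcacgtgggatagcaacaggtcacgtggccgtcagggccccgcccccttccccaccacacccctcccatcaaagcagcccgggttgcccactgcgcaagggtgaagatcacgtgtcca
Cdk2: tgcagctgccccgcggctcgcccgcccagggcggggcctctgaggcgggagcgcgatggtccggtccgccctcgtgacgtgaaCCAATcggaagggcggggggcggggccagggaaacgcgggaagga

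CPT1a knockout was compared with scramble to ask which promoters changed in H3K9ac rank. A rank orders promoters within a library and cannot tell gain from loss of the mark. By limma on normal scores of the ranks, fitted over all 10777 genes, 2 cell cycle genes rose in rank, where 5.10% of all genes did, and 2 fell, where 5.46% did. These shares of 44 genes are near the background. Across the list the median difference was -1.86 percentile points, against 0.217 for all genes.

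Ccne1 rose in rank. It stood at percentiles 1.18, 10.1 and 2.07 in scramble libraries 1 to 3 and at 55.1, 22.8 and 34.5 in CPT1a knockout, so all knockout libraries lay above all scramble libraries. The group means were 4.47 ± 4.94 and 37.4 ± 16.4 (SD, n = 3), a difference of 33.0 percentile points (1.52 ± 0.28 in normal scores, estimate ± SE, limma adjusted p = 0.00493). In acetate-treated knockout libraries Ccne1 ranked at 28.1, 22.4 and 24.7 (limma adjusted p = 0.0254 against scramble), and in KAT2a knockout at 19.5, 25.5 and 10.6, all above the scramble libraries although the KAT2a comparison did not pass (limma adjusted p = 0.0689). The call against CPT1a knockout held in all 21 alternative fits, while that for acetate was lost in 6 of 21, namely with rank percentiles (adjusted p = 0.0943) and without scramble library 1 or 3 or any 1 acetate library (adjusted p = 0.0694 to 0.118).

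Mcm7, a subunit of the replicative helicase whose promoter peak is shared with the divergent gene Ap4m1, also rose. Its ranks were 41.9, 60.2 and 67.5 in scramble and 94.5, 92.5 and 96.9 in CPT1a knockout, with means of 56.5 ± 13.2 and 94.6 ± 2.24 (limma adjusted p = 0.0160). They were 71.9, 93.5 and 92.7 with acetate and 91.8, 94.5 and 92.8 in KAT2a knockout, so that no scramble library reached any library of the other groups. The call was lost without scramble library 1 (adjusted p = 0.0727), the library in which Mcm7 ranked lowest.

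Top2a fell in rank in CPT1a knockout. It ranked at 97.4, 92.2 and 98.1 in scramble and at 64.6, 69.8 and 84.2 in CPT1a knockout (means 95.9 ± 3.21 and 72.9 ± 10.2, limma adjusted p = 0.0440). In the knockout with acetate it ranked at 92.0, 97.1 and 87.5 and in KAT2a knockout at 96.5, 91.4 and 95.3, within or near the range of scramble. The difference between CPT1a knockout with and without acetate did not itself pass the test, and the fall against scramble was lost in 9 of 21 alternative fits. These were the removal of a GC trend (adjusted p = 0.120), the replicate block, and the loss of scramble library 1 or 3, CPT1a knockout library 1 or 2, acetate library 1 or KAT2a knockout library 1 or 2 (adjusted p = 0.0509 to 0.141).

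The fall recorded for Rb1, which encodes RB itself, did not belong to the main start of the gene. Taken over every annotated start, Rb1 ranked at 98.6, 95.0 and 99.2 in scramble and at 43.4, 29.9 and 35.3 in CPT1a knockout (means 97.6 ± 2.28 and 36.2 ± 6.82, limma adjusted p = 0.000661). However, the strongest peak lay 86424 to 87238 bp inside the gene in 11 of 12 libraries, at an internal Rb1 start 86.0 kb from the first and at the start of Lpar6, a lysophosphatidic acid receptor gene nested in Rb1 on the other strand (chr14:73237895-73243294, mm10). At the first start of Rb1 alone, chosen as a measure after the data were seen, ranks were 35.6, 28.3 and 21.7 in scramble and 36.0, 19.7 and 35.5 in CPT1a knockout, with means of 28.5 ± 6.94 and 30.4 ± 9.27 (limma adjusted p = 0.922). The same holds for the falls of Rb1 against scramble named in the other comparisons, where the first start gave means of 14.7 ± 10.4 with acetate and 19.5 ± 3.22 in KAT2a knockout (adjusted p = 0.212 and 0.544).

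**Figure D3:**
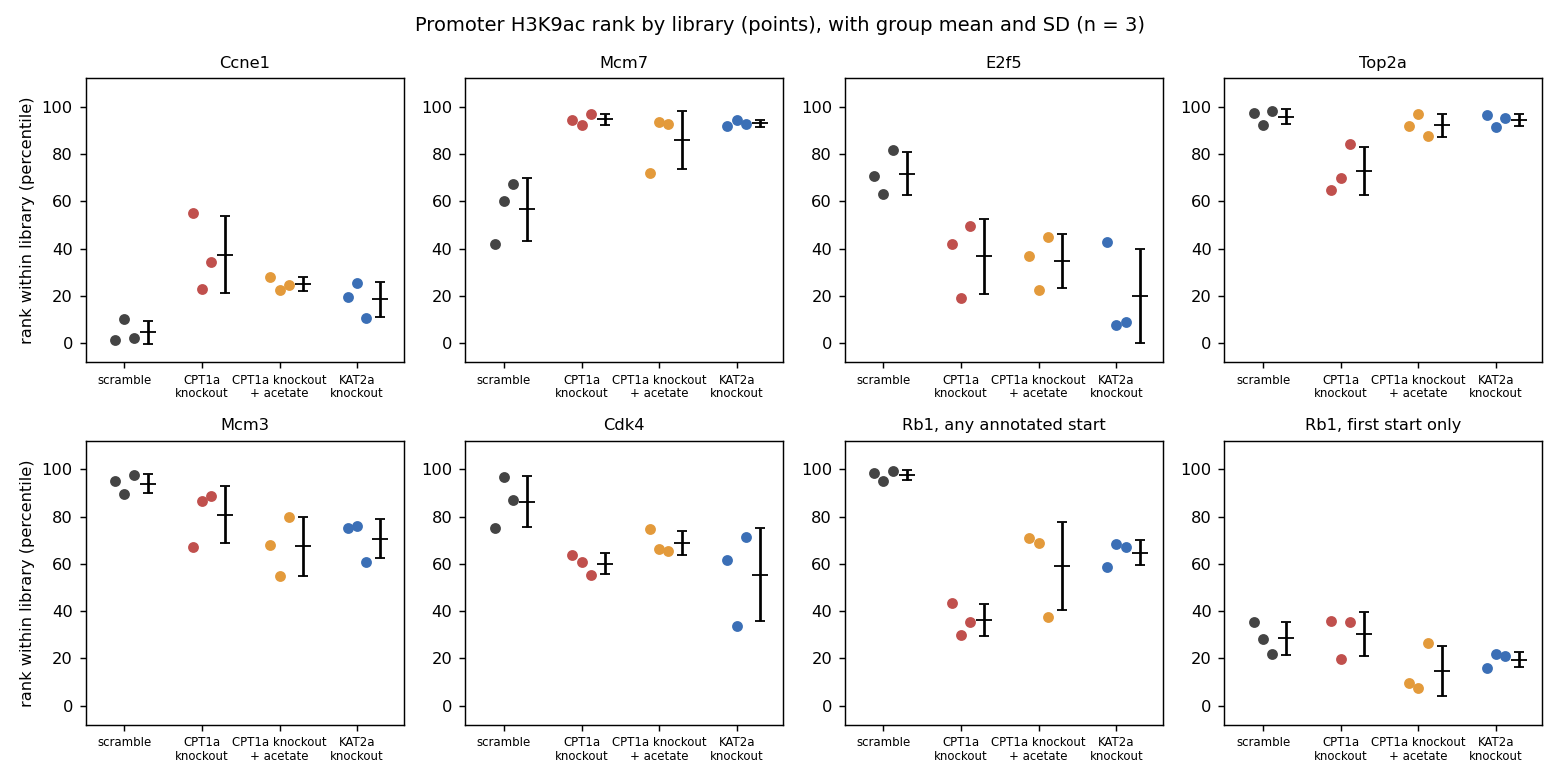
Promoter H3K9ac rank (percentile within a library, y axis) by group (x axis) for members with a changed rank, with 1 point per library and the mean and SD (n = 3) beside them. All 9 knockout libraries lie above the 3 scramble libraries for Ccne1 and Mcm7, and the separation seen for Rb1 over any annotated start is absent at its first start.

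KAT2a knockout was compared with scramble to ask where loss of this acetyltransferase changed the mark. In rank, 1 cell cycle gene rose, where 1.59% of all genes did, and 2 fell, where 2.25% did. Mcm7 rose to a mean of 93.0 ± 1.36 (limma adjusted p = 0.0455), a call lost in 10 of 21 alternative fits, which were the replicate block (adjusted p = 0.0532), the loss of any 1 scramble or KAT2a knockout library (adjusted p = 0.0790 to 0.166), and the loss of CPT1a knockout library 2 or acetate library 2 or 3 (adjusted p = 0.0521 to 0.0543). Rb1 fell at its internal start (64.8 ± 5.41, limma adjusted p = 0.0139, and 0.0514 and 0.0562 without scramble library 1 or 3). The Rb1 call was also lost with rank percentiles and with basic transcripts. E2f5, which acts with RB-family proteins in resting cells, ranked at 70.6, 63.1 and 81.5 in scramble and at 42.9, 7.79 and 9.02 in KAT2a knockout, with no overlap. Its means were 71.7 ± 9.29 and 19.9 ± 20.0 (limma adjusted p = 0.0188), and the call was lost without scramble library 1 or 3 or KAT2a knockout library 2 or 3 (adjusted p = 0.0626 to 0.0754). E2f5 also lay below every scramble library in CPT1a knockout (at most 49.4) and with acetate (at most 44.9), where the tests did not pass (limma adjusted p = 0.0776 and 0.0872).

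Acetate was given to CPT1a knockout cells to ask whether it restored the mark. Against CPT1a knockout without acetate, limma called 0 cell cycle genes in rank and 0 in width, and 0 of 10777 genes (0%) in either measure. At an unadjusted p under 0.05 there were 6 cell cycle genes in rank (13.6%), where 9.28% of all genes passed, and 1 in width (2.27%), where 6.25% did. Ranking by the peak p-value instead called 19 genes higher (0.176%) and 18 lower (0.167%), and 0 cell cycle genes. The 3 cell cycle genes with the largest rank differences and no overlap of libraries were Ccnb2, E2f1 and Trp53. Ccnb2 ranked at 72.4, 77.4 and 63.3 in the knockout and 48.1, 62.3 and 13.4 with acetate (adjusted p = 0.478). E2f1, the activator of replication genes, ranked at 42.9, 41.2 and 25.8 and at 69.0, 73.2 and 49.5 (adjusted p = 0.525). Trp53, which encodes p53 and shares its peak with Wrap53, ranked at 89.2, 94.6 and 98.3 and at 70.4, 66.2 and 81.4 (adjusted p = 0.517). None of the 3 differences passed the test, and with 3 libraries a group this does not show that acetate left the promoters as they were.

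Against scramble, acetate-treated knockout libraries had 1 cell cycle gene higher in rank, Ccne1, where 1.87% of all genes rose, and 1 lower, Rb1 at its internal start (59.2 ± 18.8, adjusted p = 0.00674), where 4.05% fell. These comparisons share the scramble libraries, so a low or high value in them enters each. Setting the 3 other groups together against scramble, 2 genes rose (5.97% of all genes) and 4 fell (7.43%). Ccne1 and Mcm7 rose (adjusted p = 0.00429 and 0.00964), and Rb1 (internal start), E2f5, Mcm3 and Cdk4 fell. Mcm3 ranked at 95.1, 89.5 and 97.5 in scramble and between 54.8 and 88.9 in the 9 other libraries (adjusted p = 0.0318). Cdk4, the partner of D-type cyclins, ranked at 75.3, 96.7 and 87.1 in scramble and between 33.6 and 74.7 elsewhere (adjusted p = 0.0405). The rise of Mcm7 was lost without scramble library 1 (adjusted p = 0.0773) and the fall of E2f5 without scramble library 1 or 3 (adjusted p = 0.0506 and 0.0736). That of Mcm3 was lost without scramble library 1 or 3 or acetate library 2 (adjusted p = 0.112, 0.158 and 0.0524), with the GC trend removed (0.0622) and with rank percentiles (0.0735). That of Cdk4 was lost without scramble library 2 or 3 (adjusted p = 0.212 and 0.105) or any 1 of 7 others, with rank percentiles (0.0747) and under the replicate block (0.0589).

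Widths differed between groups over the whole genome. The median promoter of the list was 4000 ± 444 bp wide in scramble, 2993 ± 268 bp in KAT2a knockout, 2694 ± 506 bp in CPT1a knockout and 2970 ± 267 bp when this knockout had acetate (SD over 3 library medians), and that of all marked genes 3013, 2367, 2027 and 2274 bp. The median log2 width difference of all genes from scramble was -0.54 in CPT1a knockout, -0.38 with acetate, -0.32 in KAT2a knockout and -0.41 over the 3 groups together, and acetate against no acetate gave 0.16. Scramble libraries were also the 3 with the most peaks, and all 3 were among the deepest 4, so depth and group cannot be told apart here. Each width was therefore read relative to the median of its library.

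Relative to that median, 8 cell cycle promoters were wider in CPT1a knockout than in scramble, where 13.8% of all genes were, and 3 were narrower, where 7.45% were. In KAT2a knockout 4 were wider (10.7% of all genes) and 2 narrower (6.15%), and with acetate 5 were wider (11.1%) and 3 narrower (6.27%). For the 3 groups together the counts were 9 (17.9%; Ccne1, Ccnd1, Cdkn1a, Ccnd3, E2f1, Plk1, E2f6, Cdc25a and Cdkn2c) and 3 (10.9%; Aurkb, E2f8 and Cdk2). Without the centring the split turned, for the list as for the genome: 1 wider and 27 narrower in CPT1a knockout (0.529% and 62.2% of all genes), 1 and 9 in KAT2a knockout (0.761% and 21.3%), 1 and 12 with acetate (0.529% and 33.1%), and 1 and 26 over the 3 groups (1.02% and 55.5%).

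Ccne1 was that 1 gene in all 4 comparisons, and relative to the library median it had the largest width change of the list in each. Without the centring, E2f8 and Aurkb, among others, had larger log2 changes in CPT1a knockout (-1.16 and -1.16, against 0.61 for Ccne1). Its promoter peaks summed to 1320, 767 and 1018 bp in scramble, 1905, 1376 and 1386 bp in CPT1a knockout, 1465, 1451 and 1815 bp with acetate, and 1768, 1840 and 1566 bp in KAT2a knockout. Every library of the other 3 groups was thus wider than every scramble library, although the median promoter was narrower there. Relative to the library median the width was 2.27-fold that of scramble in CPT1a knockout, 2.06-fold with acetate and 2.17-fold in KAT2a knockout (limma adjusted p = 0.000455, 0.00154 and 0.000932), and each call held in all 19 alternative fits. After all lists were reduced to an equal depth, a peak at Ccne1 was left in 1 of 3 scramble libraries and in 3 of 3 of each other group. The strongest summit of Ccne1 lay 768 and 662 bp before the gene start in scramble libraries 1 and 3 and 262 to 396 bp after it in the other 10.

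Ccnd1 and Cdkn1a were also wider relative to the library. Ccnd1 was 1.34-fold wider in CPT1a knockout than in scramble, 1.43-fold in KAT2a knockout and 1.41-fold with acetate (adjusted p = 0.0244, 0.0122 and 0.0152), and Cdkn1a, the p53 target that encodes p21, 1.50-fold, 1.73-fold and 1.67-fold in the same order (adjusted p = 0.0382, 0.0129 and 0.0168). In base pairs neither was called, since Ccnd1 measured 7679 to 11757 bp in scramble and 5841 to 10925 bp elsewhere. In CPT1a knockout Ccnd2, Cdkn2c, E2f1, E2f6 and Plk1, a mitotic kinase, were relatively wider by 1.18-fold to 1.35-fold (adjusted p = 0.0260 to 0.0477). With acetate Plk1 (1.17-fold) and Ccnd3 (1.54-fold, at its later start) passed, and in KAT2a knockout Cdc25a, a phosphatase that activates CDK2, did so at 1.28-fold (adjusted p = 0.0313). At the first start alone the Ccnd3 call with acetate and the Ccnd2 call in CPT1a knockout were lost (adjusted p = 0.453 and 0.938). Those of Ccnd1, Cdkn2c and E2f1 in CPT1a knockout and of Plk1 with acetate were lost there as well. Cdkn1a was not marked in every library at its first start and could not be fitted there. Its strongest summit lay 3020 to 3924 bp after that start. All of the single-group calls for wider promoters except those of Ccne1 ended when widths were not centred, and each was also lost on leaving out at least 1 library, among them scramble library 3 for Ccnd1 and Cdkn1a (adjusted p = 0.0533 to 0.149). With the strongest peak alone, Cdkn1a in CPT1a knockout and KAT2a knockout and Ccnd3 with acetate kept their calls. The other wider calls, except those of Ccne1, were lost there.

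The narrower promoters were those of Aurkb, E2f8 and Cdk2. Aurkb, which encodes the kinase aurora B, measured 5749, 4631 and 4771 bp in scramble and between 1999 and 3378 bp in the 9 other libraries, without overlap. Its relative width was 0.670-fold that of scramble in CPT1a knockout, 0.704-fold with acetate and 0.655-fold in KAT2a knockout (limma adjusted p = 0.00284, 0.00783 and 0.00322). E2f8 measured 13275, 7274 and 11780 bp in scramble and 4052 to 5785 bp elsewhere (0.622-fold to 0.668-fold, adjusted p = 0.00512 to 0.00878). Cdk2, the partner of cyclin E, whose peak is shared with Pmel, measured 4079, 4218 and 4162 bp in scramble and 1466 to 2852 bp elsewhere, and was narrower in CPT1a knockout (0.700-fold, adjusted p = 0.00825) and with acetate (0.691-fold, adjusted p = 0.00920). These 3 genes were narrower in base pairs as well as relative to the library. The call for E2f8 rests on the sum of its peaks, as the strongest peak alone gave no difference (adjusted p = 0.584 to 0.959), and that of Aurkb was lost at the first start of the gene in each single group (adjusted p = 0.0583 to 0.277). With the strongest peak alone the Aurkb call was also lost in CPT1a knockout and with acetate (adjusted p = 0.0592 and 0.182), and that of Cdk2 with acetate (adjusted p = 0.0556).

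**Figure D4:**
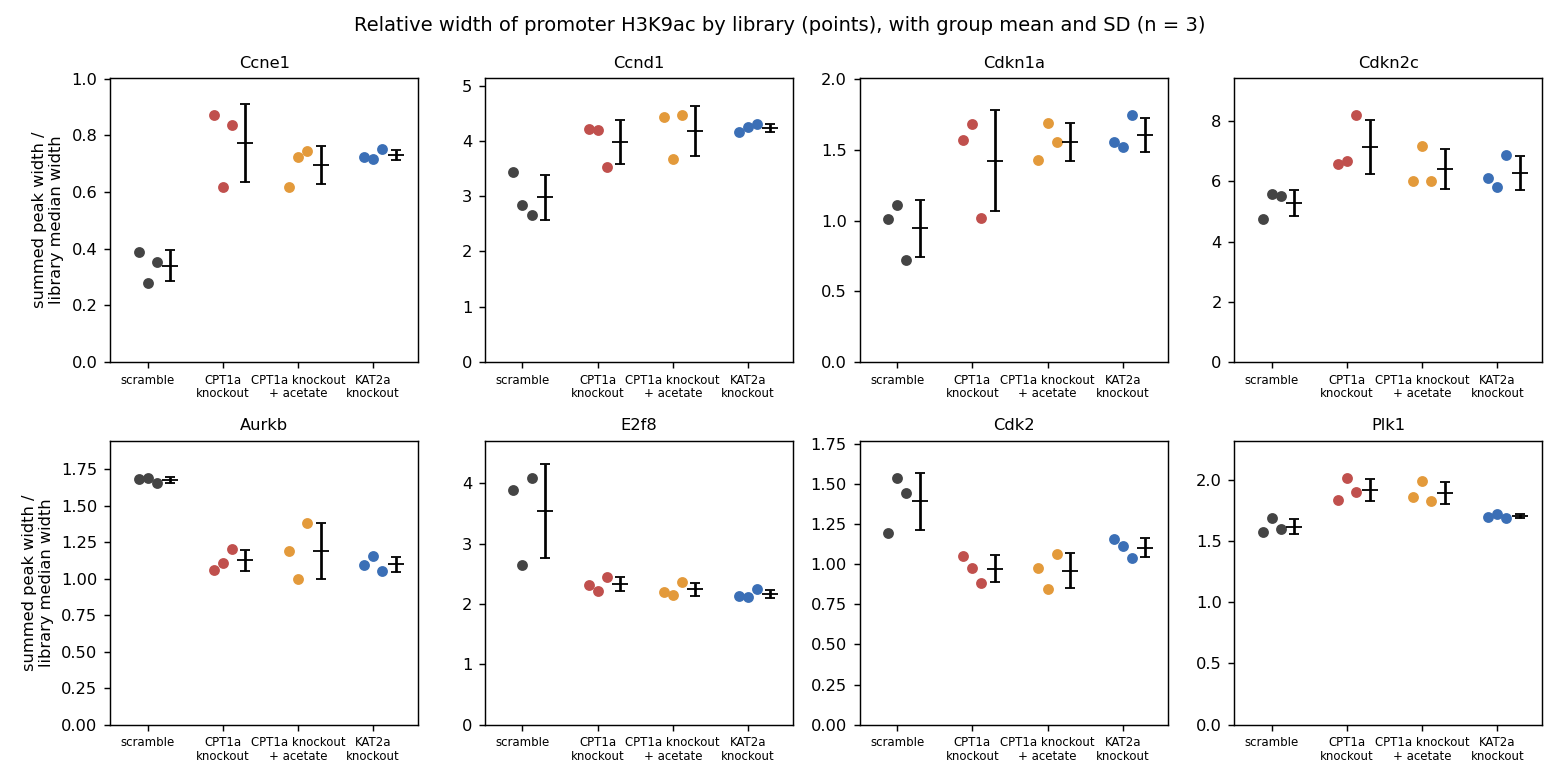
Summed width of the promoter peaks over the median width of the library (y axis) by group (x axis), with 1 point per library and the mean and SD (n = 3) beside them. All 9 knockout libraries lie above scramble for Ccne1 and below scramble for Aurkb, E2f8 and Cdk2.

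The position of the mark moved with the groups as well. The strongest summit of the 44 genes lay at a median of 672 ± 49.1 bp after the gene start in scramble, 418 ± 22.6 bp in KAT2a knockout, 380.5 ± 10.0 bp in CPT1a knockout and 451 ± 27.0 bp when this knockout had acetate (SD over 3 library medians). For 16 of 44 genes all 3 scramble summits lay farther downstream than the other 9, against 33.8% of all marked genes, among them Top2a (513 to 666 bp against 300 to 405 bp), Mcm3 (549 to 701 bp against 240 to 338 bp) and E2f5 (751 to 815 bp against 392 to 574 bp). For 4 genes, Ccne1, Ccne2, E2f3 and E2f7, all scramble summits lay farther upstream, against 6.88%. The shift was shared by the genome, where median summits lay at 628, 399, 349 and 422 bp in the same order, and its part in the rank and width differences was not tested.

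**Figure D5:**
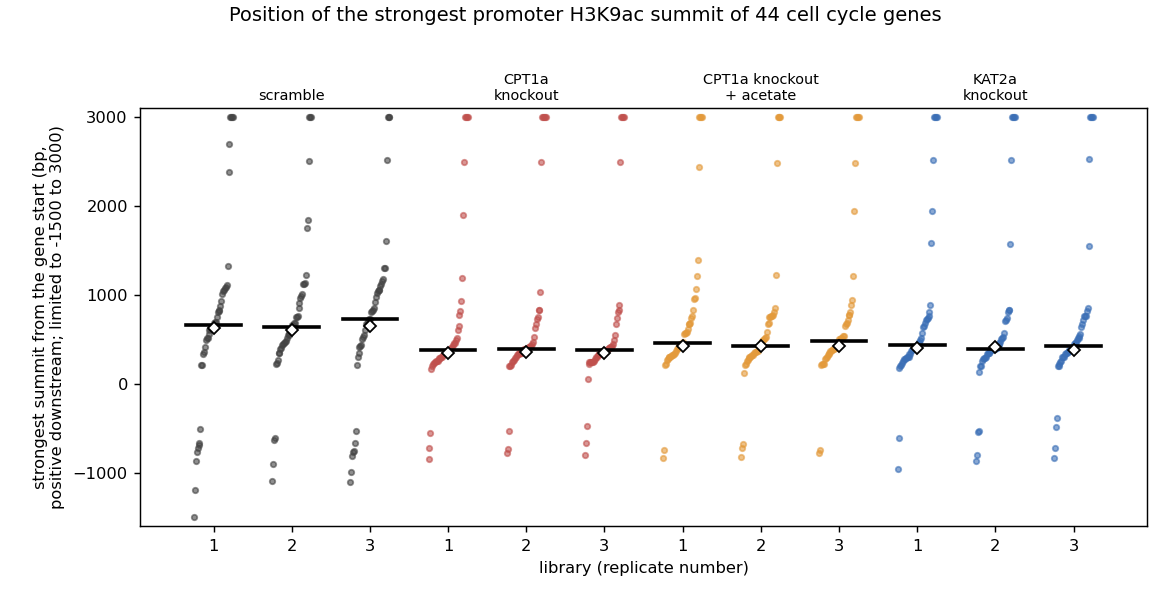
Distance of the strongest promoter summit from the gene start (bp, y axis, with points beyond its limits set at the edge) for 44 cell cycle genes (points) in 12 libraries (x axis, 3 per group), with the median of the 44 genes (line) and of all 10777 marked genes (diamond). The medians are highest in the 3 scramble libraries.

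A further 119 genes of replication, mitosis, G1 control and the p53 pathway were listed, of which 116 were marked in every library. In rank, 3 of them rose and 4 fell in CPT1a knockout, or 6.03%, below the 5.10% and 5.46% of all genes together. In KAT2a knockout 1 rose and 1 fell (1.72%, against 1.59% and 2.25%), with acetate against scramble 2 and 6 (6.90%, against 1.87% and 4.05%), and over the 3 groups 3 and 10 (11.2%, against 5.97% and 7.43%). Between acetate and no acetate 0 changed. These shares are near or below those of all genes, and the genes named next are the largest differences among them. In CPT1a knockout Tfdp1, the dimerization partner of E2F factors, rose from 58.3 ± 15.7 to 98.2 ± 0.220 (adjusted p = 0.00689), Cks1b, a CDK cofactor, from 42.8 ± 7.95 to 89.6 ± 3.52 (adjusted p = 0.0247), and Chek1, a checkpoint kinase, from 19.7 ± 5.49 to 61.7 ± 9.72 (adjusted p = 0.0152). Rbl1, which encodes the RB relative p107, fell from 97.6 ± 2.85 to 63.8 ± 18.8 (adjusted p = 0.00923), Mad2l1, of the spindle checkpoint, from 92.1 ± 1.49 to 59.0 ± 8.35 (adjusted p = 0.0332), and Pola1, of DNA polymerase alpha, from 76.2 ± 9.30 to 38.5 ± 11.1 (adjusted p = 0.0308). Tfdp1 rose (94.5 ± 2.13) and Mad2l1 fell (54.4 ± 22.7) in KAT2a knockout as well. With acetate Cks1b and Chek1 rose and Pola1, Bub1b, another checkpoint kinase, and Rbl1 led the falls, Bub1b from 59.5 ± 4.84 to 15.2 ± 9.19 (adjusted p = 0.00674). Over the 3 groups Ncapg, a condensin subunit, followed Rbl1 and Mad2l1 (95.2 to 68.2, adjusted p = 0.0313).

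In relative width, 16 of the 116 were wider and 14 narrower in CPT1a knockout (13.8% and 7.45% of all genes), 8 and 13 in KAT2a knockout (10.7% and 6.15%), 11 and 10 with acetate (11.1% and 6.27%), and 17 and 19 over the 3 groups (17.9% and 10.9%), with 0 and 0 between acetate and no acetate. Both directions together made 25.9%, 18.1%, 18.1% and 31.0% of the 116, in that order. Of 44 replication genes 10, 9, 6 and 12 were narrower and 4, 1, 3 and 4 wider. Of 32 mitotic genes 0, 0, 1 and 2 were narrower and 4, 3, 3 and 4 wider. The classes were not tested as sets. Rrm2, the ribonucleotide reductase subunit that supplies DNA precursors, was relatively wider in each group against scramble (adjusted p = 0.000370, 0.00271 and 0.00352), at 3435 bp in scramble and 3408 to 3553 bp elsewhere. Btg2, an antiproliferative p53 target, was wider in CPT1a knockout and KAT2a knockout (adjusted p = 0.0157 and 0.0105), Cks1b in CPT1a knockout and with acetate, Bbc3, a proapoptotic p53 target, in KAT2a knockout, Gins2, a helicase cofactor, with acetate, and Plk3 over the 3 groups. Orc6, a subunit of the origin recognition complex, was narrower, at 6240 ± 996 bp in scramble, 2882 ± 261 bp in CPT1a knockout and 3320 ± 197 bp with acetate (adjusted p = 0.00216 and 0.00437). Orc2 and Atr in CPT1a knockout, Chaf1a, Cdkn2d and Rpa1 in KAT2a knockout, Espl1 and Gins4 with acetate, and Espl1, Chaf1a and Orc6 over the 3 groups were the other leading narrower promoters.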

How the data were processed

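H3K9ac was measured by ChIPmentation in 12 libraries of 4T1 spheroids; the 12 input libraries were not analysed here. The authors aligned reads to mm10 and called peaks per library with MACS2, and a Drosophila spike-in was not used here; the submitters' processing notes name Bowtie2, SAMtools and deepTools, while the methods name BWA. Call settings are not given in the sources used here. The deposited lists give, per peak, a fold enrichment (ratio over background), −log10 p and −log10 q values, a score and the summit position, with no counts. Depth was recovered from the fold and −log10 p pairs, and intervals from counts cannot be given.

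Genes and starts came from GENCODE vM21 (GRCm38, the build of mm10). Promoter peaks overlapped the 1000 bp on either side of a start. Ranks (as normal scores) and log2 widths (centred on the library median) were fitted over 10777 genes in all 12 libraries with a mean per group by limma 3.58.1 (R 4.3.3; trend, Benjamini-Hochberg, called at adjusted p under 0.05), after a test on simulated data. Members, marker and pathway lists were chosen with earlier results of these data known. Named were members without a peak, the 5 extremes of rank and width, members past a threshold (or, with none, the 3 largest non-overlapping differences) and the 3 leading pathway genes per direction. Sequences came from RefSeq (GRCm38.p6). Alternatives were other windows, transcripts, rankings, filters, GC correction, width measures, equal depth or list length, the replicate block and each library left out. Fits to the first start of a gene were added after seeing the data.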

Additional observations from a re-analysis of the deposited data

How the results depend on the processing

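Of the 44 genes marked in every library, 44 remained so with windows of 500 bp or 2 kb, basic transcripts, a stricter q and each library left out, 43 with lists of equal length or equal depth (Ccne1 lost) or at the first start only (Cdkn1a lost), and 38 where a peak had to cover a start. The numbers of cell cycle genes with a changed rank moved most when promoters were ranked by peak −log10 p: 13 in CPT1a knockout, 11 in KAT2a knockout, 13 with acetate and 16 over the 3 groups (34.2%, 24.6%, 26.5% and 38.5% of all genes), against 4, 3, 2 and 6 and 1 with acetate under basic transcripts or the first start. Numbers with a changed width were 28, 10, 13 and 27 when not centred (62.7%, 22.1%, 33.6% and 56.5% of all genes), against 11, 6, 8 and 12. With the strongest peak alone they were 3 in CPT1a knockout and 2 with acetate, and at the first start 6 and 4. The cause of these moves was not tested. With each library left out, rank counts ranged over 2 to 5, 0 to 3, 1 to 3 and 3 to 7, and width counts over 5 to 10, 3 to 9, 4 to 8 and 8 to 13, in the same order, and were 0 throughout for acetate against no acetate. The KAT2a knockout rank count was 0 without scramble library 1 or 3.

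Of 1014 values of single genes under the alternatives, 800 kept their direction and side of the threshold, 197 kept the direction without passing, 121 of them among the 624 that left out a library, and 17 reversed. Uncentred log2 width differences reversed in CPT1a knockout to -0.16 for E2f1, -0.14 for Cdkn2c, -0.28 for Ccnd2, -0.33 for Plk1, -0.16 for Ccnd1 and -0.16 for E2f6, with acetate to -0.18 for Plk1, and over the 3 groups to -0.0585 for E2f1, -0.12 for Cdkn2c, -0.26 for Plk1, -0.19 for Cdc25a and -0.13 for E2f6. With the strongest peak alone E2f8 gave 0.11 in CPT1a knockout and 0.10 with acetate, and Plk1 -0.0262 over the 3 groups. The Rb1 rank score in CPT1a knockout became 0.0554 with basic transcripts and 0.0484 at the first start.

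The replicate numbers did not pair the libraries: same-numbered libraries of different groups correlated at -0.063 to 0.060 (18 pairs) and differently numbered ones at -0.086 to 0.105 (36 pairs). A replicate block gave 3, 2, 2 and 5 changed ranks, 10, 6, 8 and 11 changed widths, and 0 and 0 for acetate against no acetate. No counts were used, so counting error is unknown.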
